A study of Caenorhabditis elegans with 2 samples.

Results

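The genes xbp-1, ire-1, pek-1, atf-6 and atf-4 encode the sensors and effectors of the unfolded protein response of the endoplasmic reticulum (ER) in Caenorhabditis elegans, and they were chosen by name. They are 5 of 19973 annotated protein-coding genes. Binding of LET-607, a basic leucine zipper (bZIP) transcription factor of the CREB3 type, was mapped by chromatin immunoprecipitation and sequencing (ChIP-seq) in 1 group of 2 biological replicates, so no condition was compared. Per the labels, strain YL651 carried the let-607(tm1423) mutation and unc-119(ed3), together with vrIs121, an integrated array of a LET-607 fosmid with unc-119(+). The fosmid copy of LET-607 ended in a GFP-FLAG tag, and an antibody against GFP was used. The worms were whole animals of both sexes, grown from starved first-stage larvae and taken as young adults at 49.5 hours. They came from a single transgenic line, and no tissue can be told apart: more cells with LET-607 at a site and more LET-607 per cell would look alike.

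The unfolded protein response adjusts the folding capacity of the ER. IRE-1 is a kinase and ribonuclease in the ER membrane that splices xbp-1 mRNA, and the spliced mRNA gives the bZIP factor XBP-1. PEK-1 is the worm form of the kinase PERK, which phosphorylates the translation factor eIF2, and ATF-4 is the bZIP factor whose translation follows from that in mammals. ATF-6 belongs to a family of membrane-tethered bZIP factors that in mammals are released by proteolysis, as CREB3 factors are.

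The files give no read counts, so depth is unknown. The pooled list, labelled as peaks and background, held 30000 candidate regions, of which 1488 passed the authors' reproducibility threshold. These were the 1488 regions of highest pooled signal: the lowest had 110.822 and the next region 110.815. Passing the threshold and pooled rank are therefore not separate evidence. Of the 1488, 9 were not matched in both replicates. Replicate 1 had 30000 and replicate 2 had 26493 candidate regions. Each region has a signal, which is the authors' peak caller's own score and not an amount of protein. Genes are compared by it within a list, and a ratio between lists also carries their unknown depths. A gene was called bound when the summit of a thresholded region fell in its promoter window, which reached 1000 bp before and 200 bp past any annotated start.

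All 3 branches had a bound gene, and 4 of the 5 members were bound: xbp-1 and ire-1 of the IRE-1 branch, pek-1, and atf-6. In the whole genome 958 of 19973 protein-coding genes were bound (4.80%). Each of the 5 members had a candidate region in its window, as had 7766 genes (38.9%), and of those 7766 genes 12.3% were bound. The member atf-4 was not bound. One gene stood apart in signal: xbp-1 was at least 12.2-fold above every other member in the pooled list and in both replicates, ire-1 of its own branch included. The sensor genes of the 3 branches were closer to each other, at 212 for pek-1, 211 for ire-1 and 142 for atf-6 in the pooled list.

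The DNA at the summits is shown because the bound regions are centred on it and it can be read for known bZIP elements. The sequences are from the RefSeq copy of assembly WBcel235, which has the coordinates of ce11, and run 5′ to 3′ in the direction of each gene. Annotated transcripts were left out. Capitals mark every match, printed in full, to the 10 motifs searched on both strands. The motifs of 8 bases were TGACGTGG with its variant TGACGTGT, the palindrome TGACGTCA, the C/EBP and ATF4 element TGATGCAA, and also AGACGCAG. The shorter ones were the E-box CACGTG, the core ACGT, the part-site TGACG, the site CCACG and the box CCAAT. ACGT lies inside TGACGTGG, TGACGTGT, the palindrome and the E-box, so these overlap, and TGACG lies inside the first 3 motifs. For xbp-1 the whole upstream part of the region is given (chrIII:4193519-4193808, plus strand, 290 bp). For the others the summit and the 50 bp on either side are given: ire-1 at chrII:8125023-8125123 (minus strand), pek-1 at chrX:11414945-11415045 (minus strand) and atf-6 at chrX:12480622-12480722 (plus strand). For atf-4 only the 52 bp before the start remain (chrX:14810811-14810862, minus strand). The last one is a second thresholded region farther upstream of ire-1 (chrII:8126235-8126335, minus strand).
xbp-1: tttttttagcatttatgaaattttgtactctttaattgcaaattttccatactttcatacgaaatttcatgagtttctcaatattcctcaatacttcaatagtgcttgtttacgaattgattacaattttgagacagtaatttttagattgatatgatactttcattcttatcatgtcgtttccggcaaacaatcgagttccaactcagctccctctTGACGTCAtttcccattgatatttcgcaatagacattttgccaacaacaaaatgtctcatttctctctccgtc
ire-1: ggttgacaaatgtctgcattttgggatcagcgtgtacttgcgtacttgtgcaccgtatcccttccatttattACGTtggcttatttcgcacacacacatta
pek-1: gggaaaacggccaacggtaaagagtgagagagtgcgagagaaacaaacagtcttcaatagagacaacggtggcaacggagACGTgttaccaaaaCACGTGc
atf-6: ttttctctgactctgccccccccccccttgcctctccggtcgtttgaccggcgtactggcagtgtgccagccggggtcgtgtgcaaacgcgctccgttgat
atf-4: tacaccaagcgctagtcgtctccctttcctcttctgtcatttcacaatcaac
ire-1 upstream: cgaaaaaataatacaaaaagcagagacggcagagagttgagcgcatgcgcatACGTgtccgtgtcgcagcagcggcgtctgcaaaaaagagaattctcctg

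The xbp-1 region was the strongest of the members. Its signal was 1202 in replicate 1, 1620.2 in replicate 2 and 2808 in the pooled list, and it ranked 10, 9 and 9 in those lists. Among the 958 bound genes xbp-1 ranked 14. The region spans III 4193519 to 4194037, and its summit at 4193768 is intergenic, 41 bp before the first of 2 annotated starts. The gap to the end of the upstream gene dnj-16, on the same strand, is 379 bp, and no other gene had this summit in its window. At 519 bp the region was wider than the 404 bp that is the median width of thresholded regions.

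The palindrome TGACGTCA, the classical cyclic-AMP response element bound by CREB-type factors, stood at III 4193736 to 4193743, with its first base 73 bp before the start and its centre 28.5 bp from the summit. Within 50 bp of the summit it was found in 11 of 1488 thresholded regions (0.739%) and in 0.793% of the other 28512 candidates, so its share was no higher among thresholded regions. A second ACGT (III 4193811 to 4193814) lies in the transcribed part and is not printed. A TGACG on the minus strand (III 4193805 to 4193809) runs across the start, so it is printed only in part and not in capitals. The rest of the printed xbp-1 sequence held no other match.

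**Figure D1:**
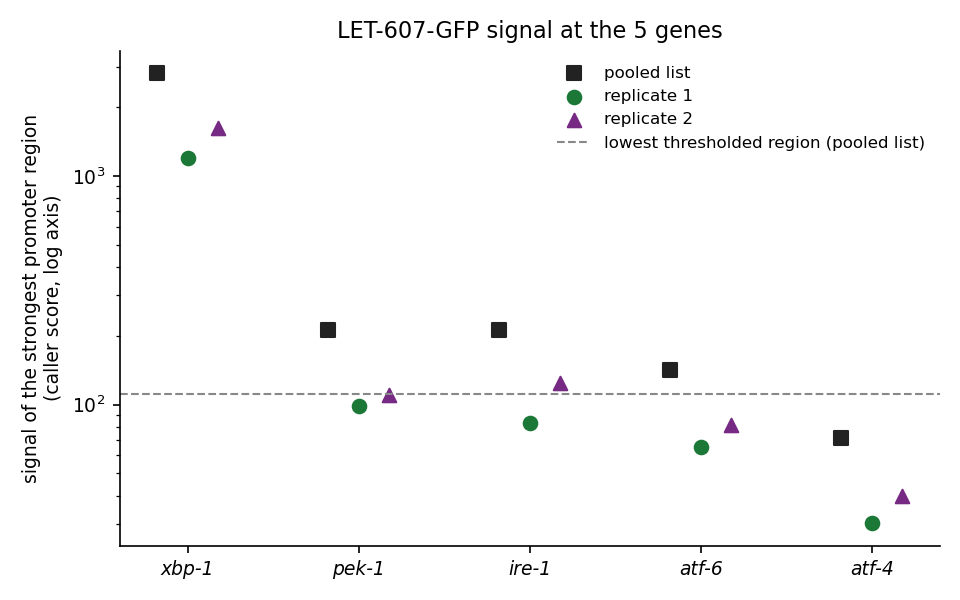
Signal of the strongest promoter region of each gene (log axis) in the pooled list (squares), replicate 1 (circles) and replicate 2 (triangles); the dashed line is the lowest thresholded signal, 111, and applies to the pooled list. The xbp-1 points stand far above the rest, pek-1 and ire-1 change places between the replicates, and atf-4 is lowest in all 3 lists.

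The sensor gene pek-1 had a signal of 98.2 in replicate 1, 111 in replicate 2 and 212 in the pooled list, where it ranked 419. The sensor gene ire-1 had 82.6 in replicate 1, 125 in replicate 2 and 211 in the pooled list, where it ranked 422. The order of these neighbours is not fixed: the ratio of pek-1 to ire-1 was 1.19 in replicate 1 and 0.887 in replicate 2. Among the 958 bound genes pek-1 ranked 363 and ire-1 ranked 365 in signal, and the median bound gene had 174.

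The pek-1 summit, at X 11414995, was intergenic and 108 bp before its single annotated start. The E-box CACGTG, a palindrome with an ACGT core bound by several bZIP and helix-loop-helix factors, lay 46.5 bp from it (X 11414946 to 11414951), and a second ACGT lay 31.5 bp from it. CACGTG was in 7.80% of thresholded windows and 2.90% of other candidate windows. The median GC content was 46.5% in thresholded windows and 40.6% in the others. Its part in the motif shares given here was not tested. The ire-1 summit, at II 8125073, was intergenic and 163 bp before its first start, and its window held 1 ACGT, 23.5 bp away. ACGT itself is common, at 34.1% of thresholded and 22.7% of other candidate windows.

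The gene atf-6 followed, with a signal of 65.2 in replicate 1, 81.7 in replicate 2 and 142 in the pooled list, where it ranked 902. In each replicate it was below both pek-1 and ire-1, and with 2 replicates no test of that order was made. The summit at X 12480672 was intergenic and 276 bp before the start. Its window held none of the 10 motifs. It had a GC content of 64.4%, above the 95th percentile of thresholded windows (59.4%), and a run of 12 cytosines, whose part in the signal was not tested. Summits in the replicates lay 39 bp apart at atf-6, against 6 bp at xbp-1, 9 bp at pek-1, 11 bp at ire-1 and 13 bp at the unbound atf-4. Over 1479 matched thresholded regions, some of which share a replicate region, the median was 24 bp and the 95th percentile 124 bp.

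The effector gene atf-4 had a candidate region that did not reach the threshold. Its signal was 30.3 in replicate 1, 40.0 in replicate 2 and 71.7 in the pooled list, where it ranked 4158 of 30000. The lowest thresholded region had 111. The −log10 q-value was 0.765 at atf-4 and 2.78 at atf-6, while xbp-1, pek-1 and ire-1 were at the ceiling of 3.18 shared by 766 pooled regions. The atf-4 summit at X 14810812 lay 2 bp before the start, and an unnamed protein-coding gene annotated inside atf-4 had the same summit in its window. It ranked 9284 in replicate 1 and 4572 in replicate 2. No motif searched was within 50 bp, TGATGCAA included, a form of the element bound by ATF4 with C/EBP factors in mammals.

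**Figure D2:**
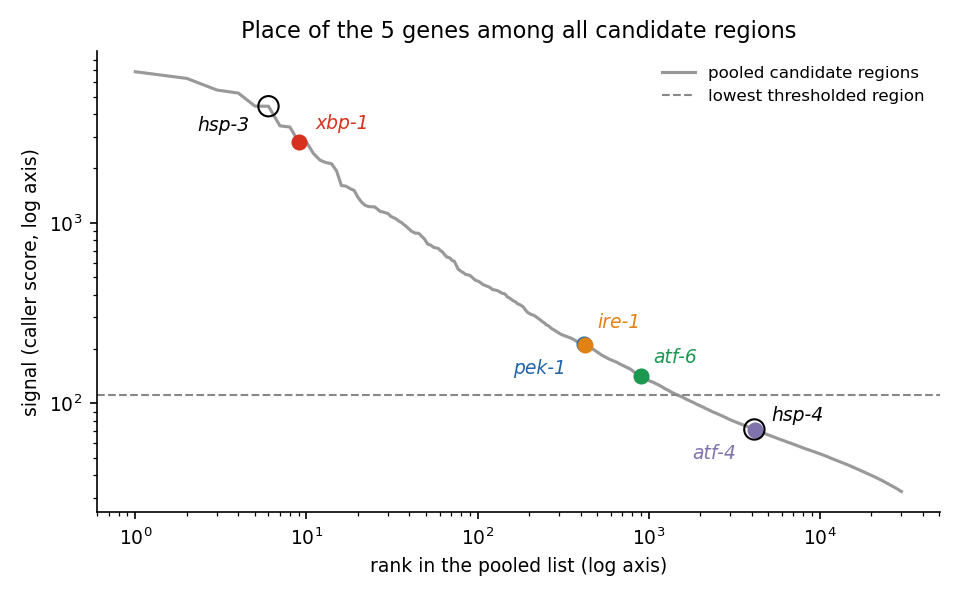
Signal of pooled candidate regions against rank (both axes log), with the 5 genes as filled points and the ER chaperone genes hsp-3 and hsp-4 as open rings. The point of pek-1 lies under that of ire-1, and atf-4 lies inside the ring of hsp-4, at 71.7 each; xbp-1 stands near hsp-3.

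The distances between levels were similar in both replicates, apart from pek-1 and ire-1. The ratio of xbp-1 to ire-1 was 14.5 in replicate 1 and 13.0 in replicate 2. Its ratio to atf-6 was 18.4 and 19.8, and its ratio to atf-4 was 39.7 and 40.6. Within the PEK-1 branch the ratio of pek-1 to atf-4 was 3.24 and 2.77. The score in replicate 2 over that in replicate 1, a ratio that no depth was available to scale, was 1.13 at pek-1 to 1.51 at ire-1. These values lie inside the 5th to 95th percentile of the matched thresholded regions (0.645 to 2.11, median 1.20), some of which share a replicate region. With as many of the strongest regions of a single replicate as the thresholded list holds, the same count of 4 of 5 members was bound in replicate 1, where 4.71% of genes were, and in replicate 2, where 4.82% were.

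**Figure D3:**
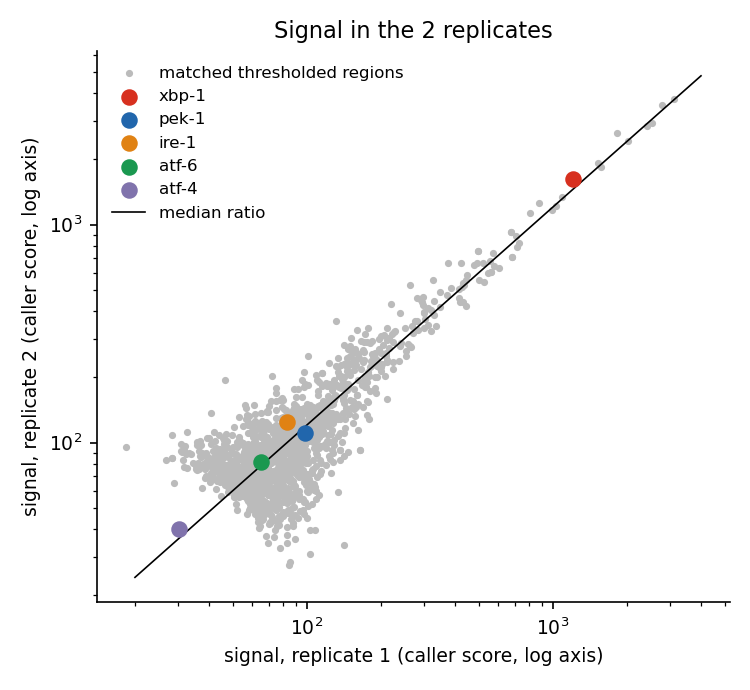
Signal in replicate 2 against replicate 1 (log axes) for 1479 matched thresholded regions (grey) and the strongest promoter regions of the 5 genes (coloured); the line is the median ratio of 1.20. All 5 genes lie close to the line, with ire-1 farthest above it.

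Outside the promoter windows, 3 further thresholded regions stood at these genes or within 3 kb of them. At xbp-1 a region with its summit at III 4195526, 168 bp past the end of the gene, had a signal of 78.8 in replicate 1, 116 in replicate 2 and 187 in the pooled list (rank 523). No protein-coding gene had it in its promoter window. At ire-1 a region farther upstream than the promoter window (summit II 8126285) had 44.5, 66.0 and 113, just inside the threshold at rank 1428. An ACGT lay 3.5 bp from its summit, and the ire-1 promoter region was 1.87-fold stronger than it in the pooled list.

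At atf-6 the second region was stronger than that of the promoter. Its summit, at X 12484300 in the 3′ UTR of atf-6, had 108 in replicate 1, 129 in replicate 2 and 232 in the pooled list (rank 341), which is 1.66-fold, 1.58-fold and 1.63-fold the promoter region. It also lies in the promoter window of the next gene, tbc-13, so its position does not assign it to atf-6. Counted by the strongest region at the locus rather than in the promoter window, atf-6 would stand above pek-1 and ire-1. Of the 4 bound members, 3 had such a second thresholded summit, against 294 of all 958 bound genes (30.7%), a share that also depends on gene length.

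In all, 34 candidates lay at the 5 loci, and 7 of them were thresholded, against 1488 of all 30000 pooled candidates. The promoter window of xbp-1 held a second, weak candidate at 47.8 with no match in either replicate. At pek-1 the 8 other candidates had 36.5 to 62.6, and at ire-1 the highest candidate below the threshold had 67.3. At atf-4 none of the 6 candidates was thresholded, and the highest, 178 bp past the end of the gene, had 82.2.

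**Figure D4:**
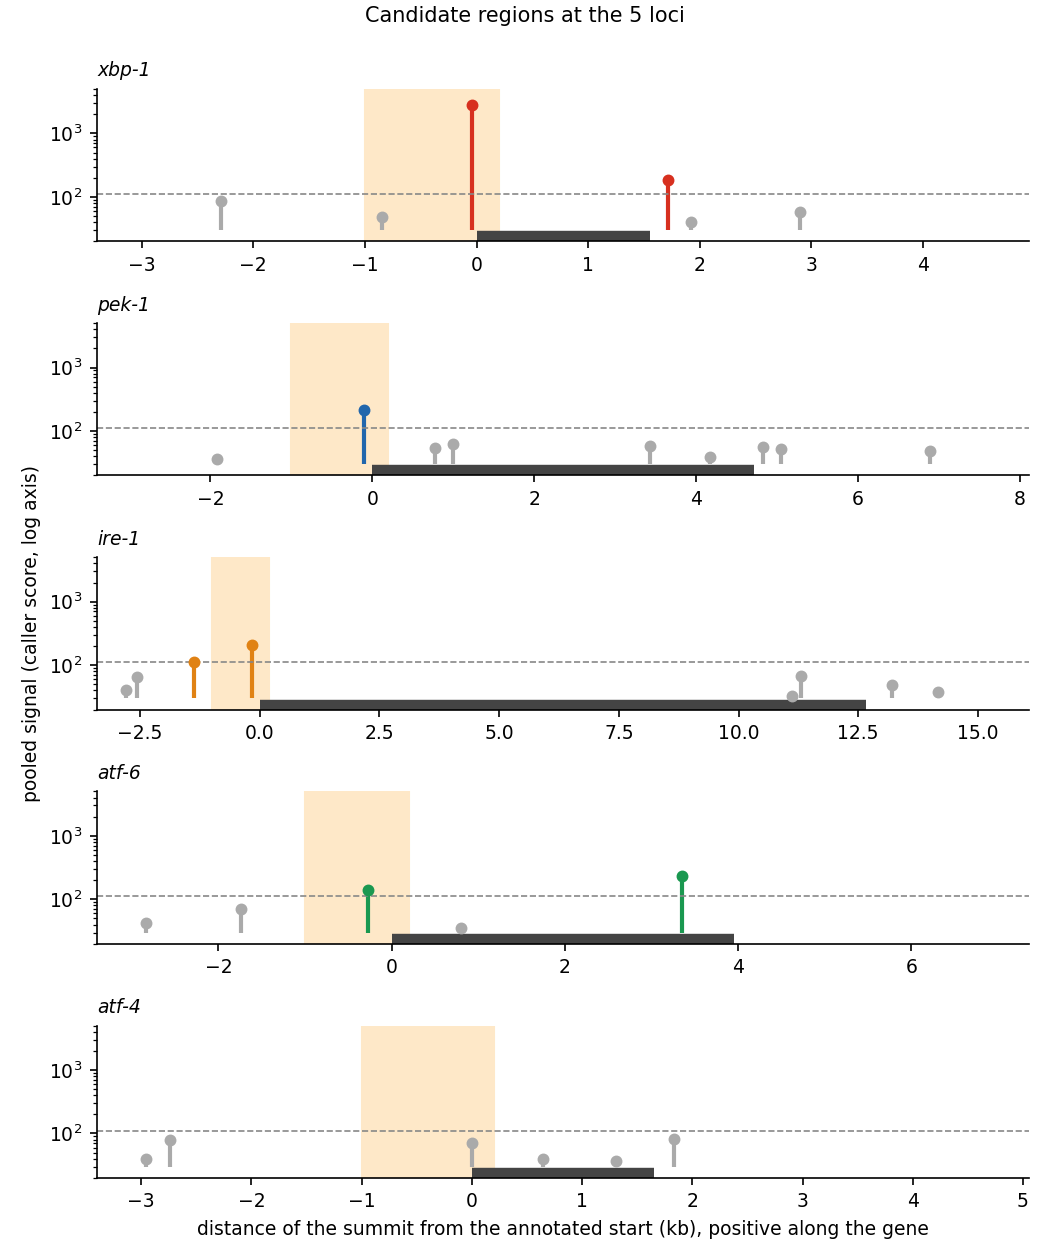
Pooled signal (log axis) of every candidate region at each gene and within 3 kb, by distance of its summit from the first annotated start in kb; coloured stems are thresholded, grey ones are not, the bar is the gene, the shaded band is the promoter window and the dashed line is the lowest thresholded signal. Second coloured stems stand past the end of xbp-1, upstream of ire-1 and near the end of atf-6.

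The 4 bound members shared some features of position. All 4 summits were intergenic and between 41 and 276 bp upstream of a start. The unbound atf-4 summit was also intergenic, 2 bp upstream, so these features do not set the bound members apart. Over all bound genes, 56.4% had their summit within 300 bp of a start on either side, and the share of intergenic summits was not counted. None of the 4 shared its region with another gene's window, while 40.6% of bound genes did. They did not share a motif: TGACGTCA was at xbp-1, CACGTG at pek-1, and an ACGT core at xbp-1, pek-1 and ire-1 but not at atf-6. TGACGTGG, an element of unfolded protein response promoters in mammals, was at none of the 5, and was in 1.88% of thresholded and 0.558% of other candidate windows. AGACGCAG, taken from an earlier analysis of these regions (5.58% of thresholded and 1.40% of other candidate windows), was also at none. Within 200 bp of the summit, which is about the extent of a region, ACGT was at 4 members, with 3 matches at xbp-1, 1 at ire-1, 5 at pek-1 and 2 at atf-4, and it was in 70.8% of thresholded and 60.5% of other candidate regions. In these wider windows TGACG was at xbp-1 and atf-4 (716 of 1488 thresholded regions and 41.6% of other candidates), and CCACG was at xbp-1 and pek-1 (44.1% of thresholded and 35.0% of other candidates). CCAAT was at pek-1, atf-6 and atf-4 (53.7% of thresholded and 60.2% of other candidates). Motifs this common occur in many candidate regions, so their presence at a member is near the background.

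Other genes of the pathway were set beside the members. For comparison, 4.80% of all protein-coding genes were bound, and 12.3% of those with a candidate region in the window. Of the 16 ER chaperone and oxidoreductase genes listed, which include many known targets of this response, 11 were bound (68.8%), with a median signal of 961 for the bound ones. The strongest was hsp-3 at 4418, which encodes a BiP chaperone. It was followed by enpl-1 at 3391, for the Hsp90 of the ER, and by the disulfide isomerase genes pdi-1 at 2414 and pdi-3 at 2154, and these last 3 each share their region with a neighbouring gene's window. The other BiP gene, hsp-4, which is widely used as a reporter of the response, was not bound. It had 38.4 in replicate 1, 36.2 in replicate 2 and 71.7 in the pooled list, while hsp-3 had 1819 in replicate 1 and 2627 in replicate 2. The calnexin gene cnx-1 was not bound either, at 73.2.

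Degradation of misfolded ER proteins had 3 of 14 genes bound (21.4%). They were cdc-48.1, which encodes the AAA ATPase that extracts such proteins, at 1002, the ubiquitin-conjugating enzyme gene ubc-6 at 196 and the derlin gene cup-2 at 177. Both ubc-6 and cup-2 share their region with a neighbouring gene's window. Counting the nearest start alone, 2 genes of this list were bound. The unbound cdc-48.2 had 99.3 and ufd-1, a cofactor of CDC-48, had 50.4.

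PEK-1 acts on eIF2, as does the separate kinase GCN-2. Of 11 listed genes around eIF2, which encode subunits of eIF2 and eIF2B, GCN-2, GCN-1 and the initiation factor eIF-2A, 7 had a candidate region and 0 were bound. Over all genes 4.80% were bound, so a count of 0 in so short a list is near the background. The highest were eif-2Bgamma at 99.1 and gcn-1, a regulator of GCN-2, at 71.3.

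Among 26 other bZIP genes, 19 had a candidate region. Of the 26, 7 were bound (26.9%, against 4.80% of all genes), with a median of 161. They were led by let-607 itself at 690.3, where the fosmid adds copies of the locus whose part in the signal was not tested, and by cebp-1, a C/EBP factor, at 175, zip-10 at 172 and zip-2 at 161. The highest unbound ones were zip-3 at 109.7 and zip-5 at 90.0. Of the bZIP genes among the members, xbp-1 (2808) was above let-607, atf-6 (142) was below that median, and atf-4 (71.7) was not bound. The 10 regulators of other stress responses include atfs-1 and skn-1, which are also among the 26 bZIP genes. Of these 10, 0 were bound, which is also near the background of 4.80%. The highest were ubl-5, of the mitochondrial unfolded protein response, at 109.6, and hlh-30, a regulator of autophagy genes, at 96.7. Both were among the strongest 1488 regions of replicate 1 alone, and neither of replicate 2.

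**Figure D5:**
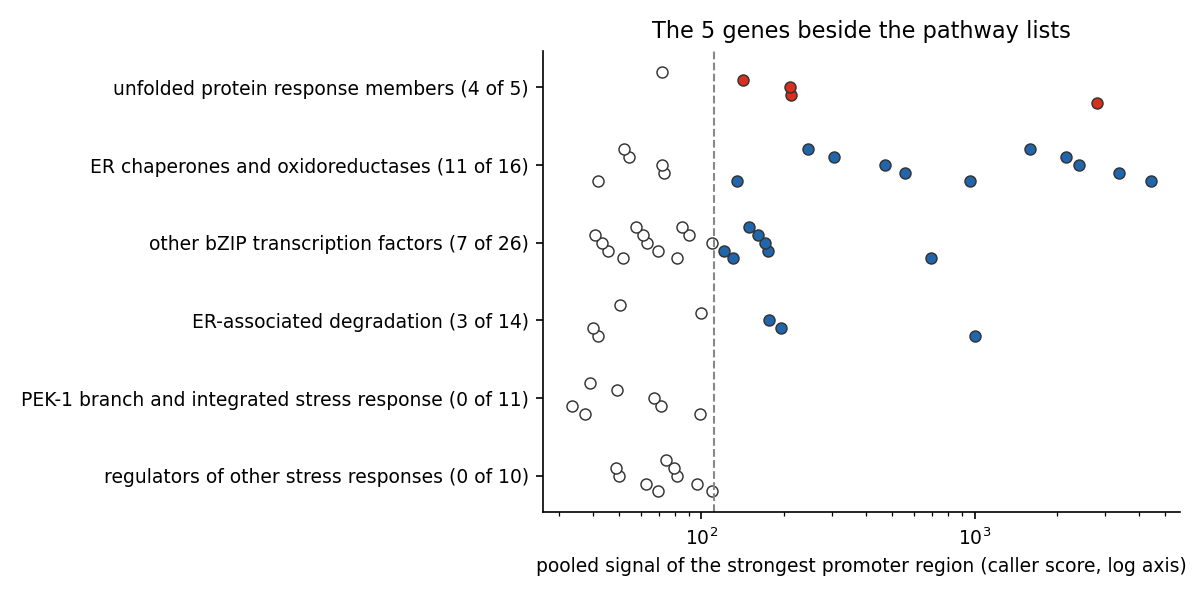
Pooled signal (log axis) of the strongest promoter region of each gene, by list; filled points are bound, open points are not, the dashed line is the lowest thresholded signal, genes with no candidate region are not drawn, and labels give bound of annotated genes. The 4 bound members (red) run from 142 to 2808 with a wide gap below xbp-1.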

How the data were processed

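Region lists of LET-607-GFP ChIP-seq on ce11 were used as deposited. Per the notes deposited with them, the candidate lists were made from replicate alignments set against a control alignment, which is not analysed here, and the thresholded list was derived from these 3 by the irreproducible discovery rate. The signal of each region and its −log10 q-value are the authors' own, and neither the signal's formula nor the aligner and caller are stated in the sources used. Depth is unknown, which leaves no counting interval.

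Summits, 1-based, were assigned to protein-coding starts of Ensembl release 115 (WBcel235) with Python 3.11.15 and pandas 2.3.3, with every start whose window held them counted. Replicate regions were matched when their span held the pooled summit. The strongest such region was taken, so several thresholded regions could share a replicate region. No test was run: the design has 1 group. Promoter calls and motif search were tested on simulated data. The members, lists and motifs were chosen with earlier results of these data known. Named were all members and, per list, up to 4 strongest bound and 2 strongest unbound genes. Of the names listed, 6 had no match and were left out.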

Additional observations from a re-analysis of the deposited data

How the results depend on the processing

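No paired analysis was possible because only 1 group exists. Of the alternatives that kept both replicates, 59 stayed within 1.5 times the main count or within the spread of the replicates and 2 did not. Of those that left 1 replicate out, 19 were counted as the same as the main result and 7 were not. With the 744 strongest thresholded regions alone, 4 other bZIP genes were bound instead of 7. Bound members numbered 3 instead of 4, since atf-6 ranked below these regions. The share of all genes bound at that cutoff is not given, so these drops cannot be set beside it. With a 51 bp window, 1 member had an ACGT core instead of 3. With 1 replicate left out, the count of bound members stayed at 4, the ratio of xbp-1 to the next member ranged from 12.2 to 13.0, and bound regulators of other stress responses ranged from 0 to 2. Ranks ranged from 9 to 10 for xbp-1, 384 to 642 for ire-1, 429 to 477 for pek-1, 859 to 1076 for atf-6 and 4572 to 9284 for atf-4, in lists of different length; the cause was not tested. Looking within 200 bp of the summit, chosen after the data were seen, gave 4 members with ACGT.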
